A study of Mus musculus with 7 samples.

Results

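Zinc carriers and nucleotide-sugar carriers were examined in calreticulin knockout and wild type mouse embryonic stem cells. The members were all probe sets of the array whose single annotated gene symbol begins with Slc30a or Slc39a, or with Slc35 followed by a letter and a number. This gave 50 genes out of 18194 that have a single-symbol probe set, or 96 probe sets out of 45101, with 10 Slc30 genes (13 probe sets), 14 Slc39 genes (26 probe sets) and 26 Slc35 genes (57 probe sets). The rule reads gene symbols only, but it was set with earlier results of these data known. The knockout group had 5 libraries of D3 embryonic stem cells, an established mouse line, in which Calr, the gene for the endoplasmic reticulum (ER) calcium-binding chaperone calreticulin, was ablated. The wild type group had 2 libraries of D3 cells with the gene intact. Each library came from a pool of replicate cultures, treated by the submitters as its own biological replicate, and was hybridised to its own Affymetrix Mouse 430 2.0 array. Whether the knockout cells were 1 clone or more is not stated, and no label names a treatment or time point.

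Zinc cannot cross membranes unaided. Slc30 proteins (ZnT) move zinc out of the cytosol, across the plasma membrane or into vesicles and the Golgi, and Slc39 proteins (ZIP) move it into the cytosol from outside or from organelles. Slc35 proteins sit mostly in Golgi and ER membranes, where they exchange sugar nucleotides made in the cytosol or nucleus, or the sulphate donor PAPS, for used nucleotides, and so feed the glycosyltransferases and sulphotransferases of the lumen. Several Slc35 members still have no agreed substrate.

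The targeted gene was lower in every knockout library. The brightest Calr probe set had signals of 858, 1055, 1064, 577 and 1006 in knockout libraries 1 to 5, against 12460.0 and 10840 in wild type libraries 1 and 2 (log2 difference -3.68, SE 0.30, limma adjusted p = 0.00595). The call was lost without wild type library 1 (-3.58, limma adjusted p = 0.253) or 2 (-3.78, adjusted p = 0.129). Whether the probe set lies inside the deleted part was not settled here. All differences are knockout minus wild type of log2(signal + 20.2), a scale on which changes at low signals appear smaller than they are, and a result was called at an adjusted p under 0.05 over the whole array. Knockout libraries 2 and 3 differed from the rest. They correlated with each other at 0.985 and with the others at 0.843 to 0.902 (Pearson, across 27022 probe sets, which are not replicates). The Lys transcript, a bacterial spike-in that tracks labelling, had 3′ probe set signals in these libraries of 15165.0 and 13155, against 6749 to 8508 in the other 5. All 10 stem cell markers were tested, and their summed signals were 80194 to 112938 in knockout libraries and 85618.5 and 99947 in wild type libraries. Knockout libraries 2 and 3 had the lowest sums, 80194 and 85261.5, the latter close to wild type library 1. Of the 10 markers, 4 lay below the other 5 libraries in both, beside 26.0% of all genes. Tdgf1, 1 of the 10, lay above them, beside 24.6% of all genes. Pou5f1, a core pluripotency factor, was at 11549, 4891, 4687, 9114.5 and 8770.3 in knockout libraries, against 11726 and 10184 in wild type libraries. Of 10 fibroblast and feeder cell markers, 9 were tested. The 10 signals summed to 11676.5, 24168, 25003, 14701 and 10658 in knockout libraries 1 to 5, against 15389 and 15321 in wild type libraries. Fn1 made up most of each sum, at 6582.5 to 17283 in knockout libraries and 9765 and 10529 in wild type libraries. The 8 primitive and visceral endoderm markers summed to 820.4 to 1798.5 in knockout and to 1459 and 2311 in wild type libraries, and 5 of them were tested. All 5 were lower in the knockout group by sign (median difference -0.53), beside 50.3% of all genes. Sox17 was lower without overlap, beside 7.44% of all genes. Limma called 0 of the 5, beside 0.0152%, and 1 had an unadjusted p under 0.05, beside 8.06%. Afp, Ttr and Apoa1 were too dim to be tested.

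None of the tested carriers passed the threshold, and 0 of 43 tested carrier genes had all 5 knockout libraries on one side of both wild type libraries. What the signals do show is a block of carriers that was high in knockout libraries 2 and 3 alone. Of the 96 probe sets, 72 exceeded the signal filter and were tested. They stood for 43 genes, and Slc30a8, Slc39a2, Slc39a5, Slc39a12, Slc35d3, Slc35f3 and Slc35f4 had no tested probe set. The limma fit called 0 of these 72 probe sets, where 0.0296% of all tested probe sets were called, and the lowest adjusted p was 0.575. An unadjusted p under 0.05 was found at 4 of the 72 probe sets, against 8.42% over the array, and at 3 of the 43 genes, each represented by its brightest probe set, against 8.06% of all genes. Over all genes 0.0152% were called. The groups failed to overlap at 13.8% of the 13120 tested genes, 6.41% higher and 7.44% lower.

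By sign alone, 30 of the 43 genes were higher in the knockout group and 13 lower. The median difference was 0.42 for the 9 tested Slc30 genes, 0.29 for the 11 tested Slc39 genes and 0.32 for the 23 tested Slc35 genes, beside 0.00 for all genes. Knockout libraries 2 and 3 both lay above the other 5 libraries at 32 of the 43 genes (74.4%), beside 24.6% of all genes, and both lay below them at 0, beside 26.0% of all genes. Over probe sets they lay above at 54 of 72 and below at 0, beside 26.9% and 20.9% of all tested probe sets. The signal filter averaged all 7 libraries, so which genes were tested drew in part on these 2. Slc35g3, counted above, passed the filter only with them. Slc35f3 passed only without them, with a log2 difference of 0.66. With knockout libraries 2 and 3 left out, 19 of the 42 carrier genes tested both with and without them were higher and 23 lower. Their median difference was then -0.04 beside -0.01 for all genes, and for the zinc carriers alone it was -0.16, where all libraries gave 0.37. Limma then called 0 of the 42 genes, beside 0.00755% of all genes, and 1 had an unadjusted p under 0.05, beside 6.13%. Fibroblast markers stood high in the same libraries, with 7 of 9 above the other 5, beside 24.6% of all genes. Postn and Dcn, counted among these 7, passed the signal filter only with knockout libraries 2 and 3 included. Of 10 stem cell markers, 4 stood low there and 1 stood high. The part of either cell type, and of what the Lys control measures, in the carriers' signals was not tested. In RNA from whole cultures, fewer cells of a type and less RNA per cell cannot be told apart.

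**Figure D1:**
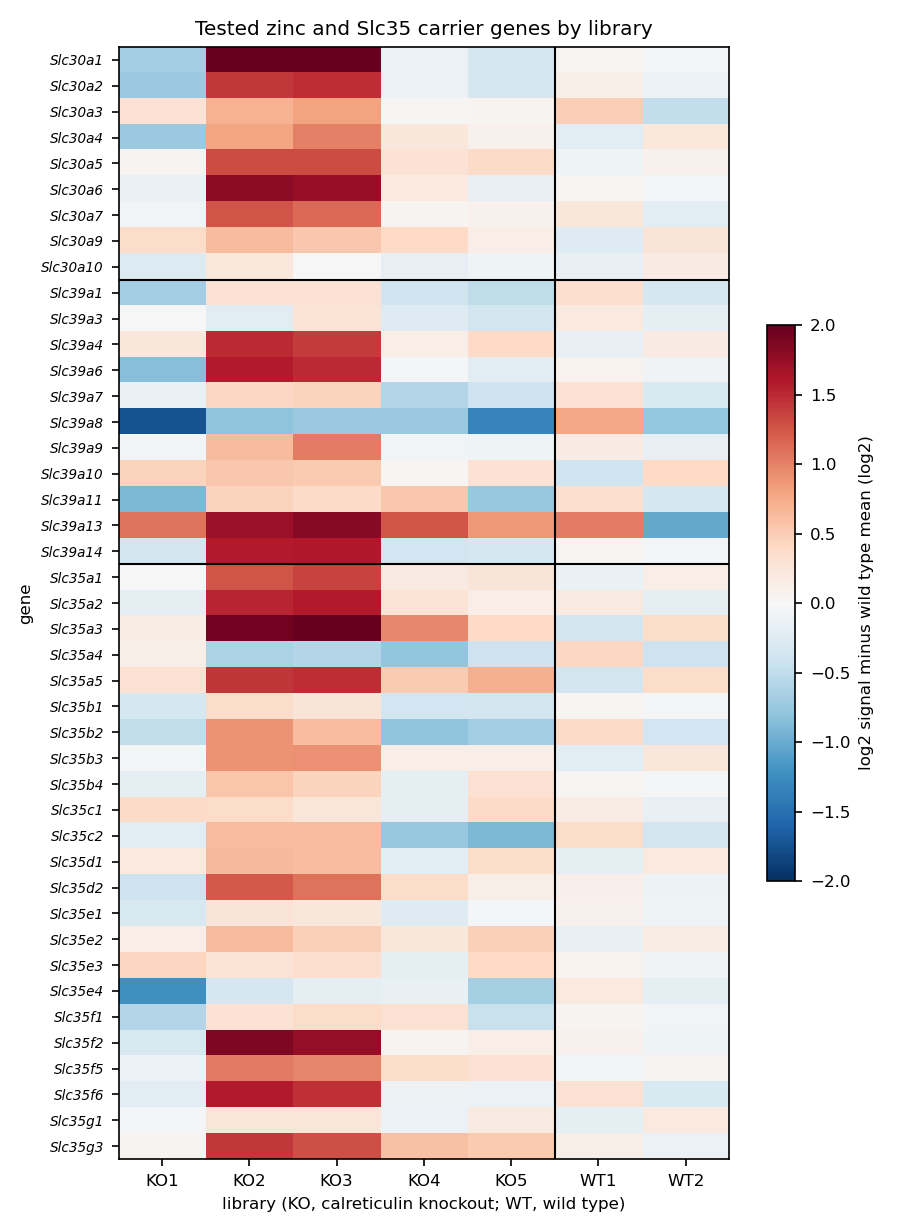
Log2 signal of the 43 tested carrier genes (rows, each by its brightest probe set) in the 5 knockout and 2 wild type libraries (columns), relative to the mean of the wild type libraries. Colours stop at -2 and 2, lines part the Slc30, Slc39 and Slc35 genes and the groups, and red cells gather in the columns of knockout libraries 2 and 3.

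Among the zinc exporters, 8 of 9 tested genes had a positive difference and 8 of 9 had knockout libraries 2 and 3 above the other 5. Slc30a1, the main exporter of the plasma membrane and a known target of the metal-responsive factor Mtf1, had signals of 106, 1103, 897, 171 and 142 in knockout libraries 1 to 5, against 188 and 182 in wild type libraries. Knockout libraries 2 and 3 were high, while knockout libraries 1, 4 and 5 were each below both wild type signals. The difference was 0.69 (SE 0.84, limma adjusted p = 0.759), and it was -0.38 without knockout libraries 2 and 3 (SE 0.28, limma adjusted p = 0.788). The gene's other probe set was at 33.0, 951, 1629, 45.1 and 45.1 in knockout libraries, against 43.4 and 238 in wild type libraries. Slc30a2, a vesicular carrier best known for loading zinc into milk, had 141, 706, 731, 230.2 and 193 in knockout libraries 1 to 5, against 273 and 230.5 in wild type libraries. Here too knockout libraries 2 and 3 were high and the other 3 lay below both wild type signals, with a difference of 0.34 (SE 0.60, adjusted p = 0.838).

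The promoters of these exporters are shown as 2 examples from the 8 Slc30 genes, of 9 tested, that were highest in the same 2 libraries. Each window runs from 250 bases before to 50 bases after the annotated start, read on the gene's strand from RefSeq on build GRCm38.p6. Capitals mark the letters TGCNCNC on either strand, a loose form of the core of the metal response element bound by Mtf1. The Slc30a1 window is chr1:191906531-191906830 (plus strand) and the Slc30a2 window is chr4:134343216-134343515 (plus strand).
Slc30a1: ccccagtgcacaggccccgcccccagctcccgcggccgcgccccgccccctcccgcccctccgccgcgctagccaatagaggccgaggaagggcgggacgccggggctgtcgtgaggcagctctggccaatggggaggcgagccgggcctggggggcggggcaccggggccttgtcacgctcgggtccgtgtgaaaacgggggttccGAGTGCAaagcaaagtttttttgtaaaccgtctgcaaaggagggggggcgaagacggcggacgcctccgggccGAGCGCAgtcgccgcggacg
Slc30a2: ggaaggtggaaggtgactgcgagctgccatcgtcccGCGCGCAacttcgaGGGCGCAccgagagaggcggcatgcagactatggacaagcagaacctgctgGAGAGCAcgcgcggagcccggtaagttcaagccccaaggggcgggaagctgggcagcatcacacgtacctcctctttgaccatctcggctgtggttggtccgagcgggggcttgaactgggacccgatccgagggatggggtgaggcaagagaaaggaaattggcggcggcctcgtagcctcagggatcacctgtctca
The Slc30a1 window held 2 matches and the Slc30a2 window 3, all on the reverse strand. Such matches are common: 51.0% of all 32851 promoter windows held at least 1, and 7.1% held 3 or more. Of the 53 windows found for 43 member genes, 35 held at least 1 (66.0%). Of the other Slc30 windows, Slc30a4 held 5 matches, Slc30a10 3, Slc30a6 2 and Slc30a5 1. Slc30a7 and Slc30a9 held 0, and the 2 windows of Slc30a3 held 0 and 1. All of these genes but Slc30a10 were also highest in knockout libraries 2 and 3. A match describes the letters only.

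The exporters of the early secretory pathway were also highest in knockout libraries 2 and 3. Slc30a5, Slc30a6 and Slc30a7 load zinc into the Golgi and its vesicles, where enzymes such as alkaline phosphatases take it up, and Slc30a5 and Slc30a6 work as a heterodimer. Slc30a5 had signals of 1878, 4495, 4524, 2230 and 2374.5 in knockout libraries 1 to 5, against 1704 and 1938 in wild type libraries. Knockout libraries 2 to 5 exceeded both wild type libraries, and knockout library 1 lay between them (0.67, SE 0.39, limma adjusted p = 0.591). Without knockout libraries 2 and 3 the difference was 0.24. Slc30a6 had 946.5, 3632, 3530.0, 1196 and 927 in knockout libraries, against 1059 and 1020 in wild type libraries. Only knockout libraries 2, 3 and 4 exceeded both wild type libraries, and without knockout libraries 2 and 3 the difference of 0.69 (SE 0.59, adjusted p = 0.671) turned to -0.03 (SE 0.24, adjusted p = 0.974). Slc30a7 had 428, 1086, 995, 462 and 474 in knockout libraries, against 519 and 378 in wild type libraries (0.50, SE 0.42, adjusted p = 0.671).

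For Slc30a5 and Slc30a7 the capitals mark ACGTGGC on either strand, the letters of the Golgi stress response element defined in human cells. The windows are chr13:100833378-100833677 (minus strand) for Slc30a5 and chr3:116007357-116007656 (minus strand) for Slc30a7.
Slc30a5: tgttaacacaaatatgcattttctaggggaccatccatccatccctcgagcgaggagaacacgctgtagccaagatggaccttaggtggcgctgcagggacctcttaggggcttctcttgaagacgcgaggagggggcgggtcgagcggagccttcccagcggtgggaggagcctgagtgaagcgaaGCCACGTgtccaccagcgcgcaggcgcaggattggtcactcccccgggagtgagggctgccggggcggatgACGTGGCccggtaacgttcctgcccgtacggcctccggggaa
Slc30a7: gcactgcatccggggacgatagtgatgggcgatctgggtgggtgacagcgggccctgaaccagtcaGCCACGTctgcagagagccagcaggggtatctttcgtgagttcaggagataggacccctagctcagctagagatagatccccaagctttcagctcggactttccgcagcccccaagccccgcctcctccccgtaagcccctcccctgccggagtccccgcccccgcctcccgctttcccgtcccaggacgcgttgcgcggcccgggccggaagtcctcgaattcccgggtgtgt
Slc30a5 held 2 matches, 1 on each strand, and Slc30a7 held 1. These letters were in 7 of the 53 member windows (13.2%), beside 2.58% of all windows. They were found in 2 of 10 Slc30 windows, 3 of 15 Slc39 windows (Slc39a5, Slc39a11 and Slc39a13) and 2 of 28 Slc35 windows (Slc35c1 and Slc35e3). Slc30a6, the partner of Slc30a5, held none, and Slc39a5 was too dim to be tested. Among the tested genes with these letters, Slc30a5, Slc30a7 and Slc39a13 had knockout libraries 2 and 3 above the other 5. Slc39a11, Slc35c1 and Slc35e3 did not. Any link between the letters and the signals was not tested. The ER stress response element, searched on both strands, was in 0 member windows and in 0.119% of all windows.

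Of the remaining exporters, Slc30a3, Slc30a4 and Slc30a9 had knockout libraries 2 and 3 above the other 5. Slc30a9, linked to zinc export from mitochondria, had signals of 1116, 1349, 1255.0, 1134 and 947 in knockout libraries, against 710.5 and 1033 in wild type libraries. Here 4 of 5 knockout libraries exceeded both wild type libraries, with a difference of 0.42 (SE 0.27, limma adjusted p = 0.601) that was 0.30 without knockout libraries 2 and 3. It was 0.15 without wild type library 1 and 0.68 without wild type library 2. Slc30a3 and Slc30a4, vesicular carriers, differed by 0.38 and 0.27, with signals of 333.9 to 591 and 167 to 605 in knockout libraries, against 469 and 227 (Slc30a3) and 249.0 and 341 (Slc30a4) in wild type libraries. Slc30a10, a plasma membrane exporter known mainly for manganese, was dim, at 55.9 to 86.1 in knockout libraries and 61.9 and 83.1 in wild type libraries (-0.06). Slc30a8, the carrier of insulin granules, was not tested.

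**Figure D2:**
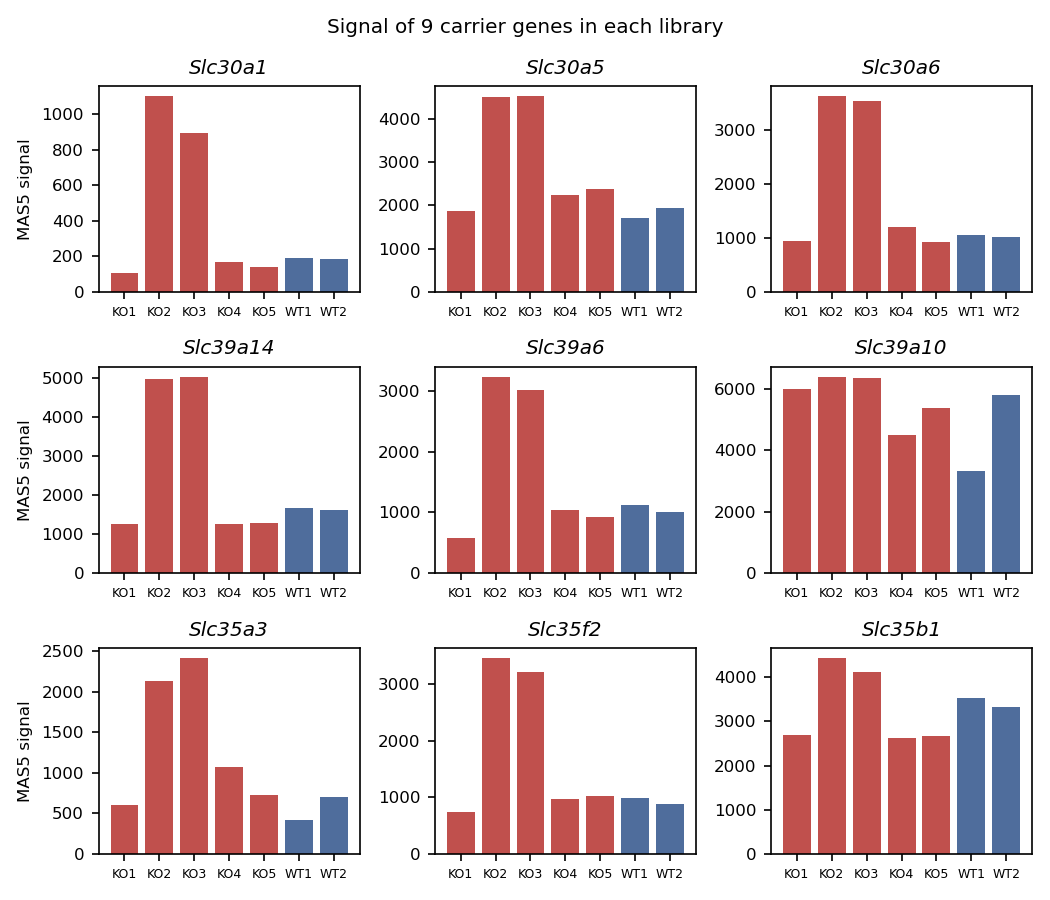
MAS5 signal (linear scale from 0) of 9 carrier genes in each library, with knockout libraries as red bars and wild type libraries as blue bars. Each bar is 1 library. Slc30a1, Slc30a6, Slc39a14, Slc39a6 and Slc35f2 stand high in knockout libraries 2 and 3 alone, whereas Slc39a10 and Slc35b1 vary less.

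The Slc39 importers were less uniform than the exporters in sign, with 6 positive and 5 negative differences. Of 11 tested genes, each by its brightest probe set, 7 had knockout libraries 2 and 3 above the other 5. Without these libraries 8 of the 11 were lower in the knockout group and 3 higher, with a median of -0.36. Slc39a14, a plasma membrane carrier that also takes up iron and manganese, had signals of 1264, 4963, 5028, 1249 and 1280.2 in knockout libraries 1 to 5, against 1666 and 1619 in wild type libraries. Knockout libraries 2 and 3 were high, and the other 3 were close to one another and below both wild type libraries. The difference of 0.41 (SE 0.63, limma adjusted p = 0.806) turned to -0.37 without knockout libraries 2 and 3 (SE 0.22, limma adjusted p = 0.770). The gene's other tested probe set gave 0.72, and 0.35 without these libraries, so of the 2 tested probe sets only the brightest turned in sign. An untested probe set of the gene was at 16.6, 258, 339, 17.8 and 15.6 in knockout libraries, against 51.4 and 35.4 in wild type libraries. Slc39a6, studied with its partner Slc39a10 for roles in cell adhesion changes, had 581.5, 3238, 3028, 1041 and 918 in knockout libraries, against 1118 and 1011 in wild type libraries (0.40, SE 0.63, adjusted p = 0.815). Without knockout libraries 2 and 3 the Slc39a6 difference was -0.36, while its other tested probe set then gave 0.18. In Slc39a10 knockout libraries 2 and 3 also lay above the other 5, but by a small margin over knockout library 1. Its signals were 5980, 6387, 6342, 4498 and 5383 in knockout libraries, against 3324 and 5790 in wild type libraries (0.37, SE 0.28, adjusted p = 0.642). The wild type libraries differed from each other by more than the 5 knockout libraries did, and the difference was -0.0297 without wild type library 1 and 0.77 without wild type library 2.

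Slc39a4, the zinc uptake carrier of the gut, was also highest in knockout libraries 2 and 3, at 975, 2375, 2233, 915 and 1104.5 in knockout libraries and 736.5 and 939.5 in wild type libraries. Knockout library 4 lay below wild type library 2, so the groups overlapped (0.73, SE 0.43, limma adjusted p = 0.591). Slc39a13, a Golgi and vesicle carrier, had the largest positive difference among the tested carriers, 1.35 (SE 0.50, adjusted p = 0.589). Its signals were 196, 316, 339.9, 221 and 165 in knockout libraries, against 186 and 30.0 in wild type libraries. Wild type library 1 lay within the knockout range, and wild type library 2 far below it. Slc39a8, a relative of Slc39a14, had the largest negative difference, -1.07 (SE 0.44, adjusted p = 0.589), with 75.2, 163, 170.0, 171 and 107 in knockout libraries against 524 and 168 in wild type libraries. Wild type library 2 lay within the knockout range, and wild type library 1 far above it.

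Slc39a7, which releases zinc from the ER and Golgi, showed no separation, with 2098, 3062, 3150.0, 1522 and 1722 in knockout libraries against 2850.3 and 1844 in wild type libraries (-0.05, SE 0.36, limma adjusted p = 0.961). Slc39a1 (-0.20), Slc39a11 (-0.06) and Slc39a3 (-0.11) had small negative differences. Slc39a3, a plasma membrane importer, had 246, 209.8, 302.5, 201.0 and 185 in knockout libraries, against 282 and 213 in wild type libraries, and its probe sets differed in sign, at -0.11 and 0.60. Slc39a9, a carrier of the secretory pathway, had 399, 655.0, 868, 396 and 388 in knockout libraries, against 469 and 364 in wild type libraries. Its probe sets differed in sign too, at 0.29 and -0.44. Slc39a2 had too low a signal to be tested. Its signals were 43.8, 80.5, 75.7, 33.9 and 50.3 in knockout libraries and 11.5 and 15.0 in wild type libraries, so that its groups did not overlap. A signal of this size cannot be told from background without detection calls, and it was chosen for mention after its values were seen. In all, 5 of the 24 untested member probe sets did not overlap between the groups, where 9.98% of the 18015 untested probe sets of the array did not. Those of Slc39a2, Slc39a6 (2 probe sets) and Slc39a14 were higher in knockout libraries, and 1 of Slc35a4 was lower.

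**Figure D3:**
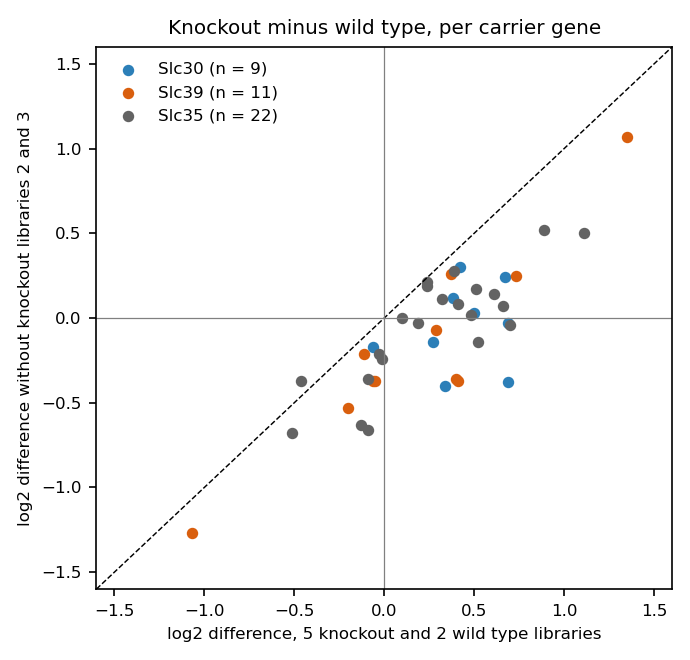
Knockout minus wild type log2 difference of 42 carrier genes, over 5 knockout and 2 wild type libraries (x axis) and without knockout libraries 2 and 3 (y axis). The dashed line marks equal values and each point is 1 gene. Most points lie below the line, and Slc39a13 (1.35 and 1.07) and Slc39a8 (-1.07 and -1.27) stand at the ends.

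Among the 9 Slc35 genes with an assigned sugar nucleotide or PAPS substrate, 8 were higher in knockout libraries by sign (median difference 0.41), and 8 had knockout libraries 2 and 3 above the other 5. Without those libraries the median was 0.08 for these 9 genes. It was 0.01 for the 22 Slc35 genes tested both with and without them, against 0.32 for all 23 tested with them. Slc35a3, which carries UDP-N-acetylglucosamine for branching of N-glycans, had the largest difference of the Slc35 genes. Its signals were 607, 2140.2, 2421, 1076 and 726 in knockout libraries 1 to 5, against 418 and 708 in wild type libraries. Knockout libraries 2, 3, 4 and 5 exceeded both wild type libraries and knockout library 1 lay between them (1.11, SE 0.55, limma adjusted p = 0.589). Without knockout libraries 2 and 3 the difference was 0.50 (SE 0.33, adjusted p = 0.779). The 4 tested probe sets of Slc35a3 ranged from 0.06 to 1.16, and from -0.30 to 0.50 without these libraries. Slc35a1, the CMP-sialic acid carrier, had 819.8, 1990.4, 2136, 942 and 992 in knockout libraries, against 746 and 915.0 in wild type libraries (0.61, SE 0.42, adjusted p = 0.619). Slc35a2, the X-linked UDP-galactose carrier, had 260.3, 896, 934.5, 368 and 331 in knockout libraries, against 344 and 262 in wild type libraries (0.66, SE 0.50, adjusted p = 0.642). Its 5 tested probe sets ranged from -0.15 to 0.66 and so disagreed in sign.

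The sulphate donor carriers gave a mixed picture. Slc35b2, the main PAPS carrier of the Golgi, had 468, 1268.5, 1043, 378 and 407 in knockout libraries with its brightest probe set, against 875 and 512 in wild type libraries (-0.09, SE 0.51, limma adjusted p = 0.950). Its other probe set was lower in all 5 knockout libraries, at 169, 214, 205, 179 and 194 against 478 and 304 in wild type libraries. This was the only tested member probe set without overlap between the groups, 1 of 72, where 13.6% of all tested probe sets did not overlap (7.8% higher and 5.85% lower). The difference was -0.92 (SE 0.26, unadjusted p = 0.00566, limma adjusted p = 0.575), and -1.0 without knockout libraries 2 and 3 (SE 0.29, limma adjusted p = 0.820). Slc35b3, the second PAPS carrier, differed by 0.41, with knockout libraries 2 and 3 at 713 and 720.5 and the other 3 at 362 to 413, against 315 and 439 in wild type libraries.

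Carriers for proteoglycan and fucose donors had differences of 0.19 to 0.48 by their brightest probe sets. Slc35b4, which carries UDP-xylose and UDP-N-acetylglucosamine, differed by 0.19, and its 3 probe sets lay between 0.18 and 0.25. Slc35d1, which brings UDP-glucuronic acid into the ER for chondroitin synthesis, had 719.7, 994, 962, 534 and 806 in knockout libraries, against 540.1 and 723.5 in wild type libraries (0.32, SE 0.31, limma adjusted p = 0.706). The other tested probe set of Slc35d1 was dimmer, at 107.7, 123.8, 176.7, 53.5 and 108.5 in knockout libraries against 45.3 and 54.2 in wild type libraries. Its difference was 0.87 (SE 0.36, limma unadjusted p = 0.0368, adjusted p = 0.575), and 0.61 without knockout libraries 2 and 3. Slc35d2 differed by 0.48 and Slc35c1, the GDP-fucose carrier, by 0.24. Slc35c1 was among the 6 tested Slc35 genes in which knockout libraries 2 and 3 did not exceed the other 5, at 167, 165.0, 149.8, 107 and 167 in knockout libraries against 139 and 109 in wild type libraries.

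Slc35b1, shown in human cells to exchange ATP for ADP across the ER membrane and so to supply the ER chaperone BiP, was bright and had a difference near 0. Its signals were 2691, 4443, 4113, 2633 and 2667.5 in knockout libraries, against 3531 and 3327.5 in wild type libraries (-0.09, SE 0.30, limma adjusted p = 0.913). Knockout libraries 2 and 3 lay above both wild type libraries and the other 3 below both, so without knockout libraries 2 and 3 the difference was -0.36 (SE 0.20, adjusted p = 0.770). Slc35f2, known in human cells as the route by which the drug sepantronium enters, had 742, 3461, 3206, 969 and 1025 in knockout libraries, against 982.5 and 882 in wild type libraries. Its difference of 0.70 (SE 0.61, adjusted p = 0.677) lay in knockout libraries 2 and 3, and without them it was -0.04 (SE 0.25, adjusted p = 0.968).

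The other Slc35 genes without an agreed sugar substrate ranged from -0.51 for Slc35e4 to 0.89 for Slc35a5. Slc35a5 had 443, 994.5, 1018, 522 and 595 in knockout libraries, against 272 and 462 in wild type libraries, so 4 of 5 knockout libraries exceeded both wild type libraries (SE 0.39, limma adjusted p = 0.589). Slc35g1, linked to calcium entry in human cells, had 1161.5, 1420.0, 1415, 1098 and 1365 in knockout libraries, against 1038 and 1384 in wild type libraries (0.10, SE 0.26, adjusted p = 0.891). Slc35a4 was 1 of 7 tested Slc35 genes that were lower by sign, at 1156, 688, 706, 611 and 798 in knockout libraries against 1444 and 795 in wild type libraries (-0.46, SE 0.34, adjusted p = 0.635). The difference was -0.0415 without wild type library 1 and -0.89 without wild type library 2. Its probe sets disagreed, at -0.46, -0.56 and 0.32, and so did those of 2 further genes. Slc35c2, a Golgi protein with a part in fucosylation, had 160.1, 304, 304, 105 and 93.3 in knockout libraries, against 252 and 144 in wild type libraries, and its probe sets gave -0.13 and 0.50. Slc35e1 had 975, 1467, 1431, 1018 and 1196 in knockout libraries, against 1308 and 1150.2 in wild type libraries, and its probe sets gave -0.03 and 0.19. The remaining members differed by 0.77 (Slc35g3), 0.52 (Slc35f6), 0.51 (Slc35f5), 0.39 (Slc35e2), 0.24 (Slc35e3) and -0.01 (Slc35f1). Of these 6, Slc35f5, Slc35f6 and Slc35g3 had knockout libraries 2 and 3 above the other 5.

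Genes that work beside the carriers gave 0 calls, where 0.0152% of all genes were called. Of 5 zinc buffering genes, 4 were tested and 3 had a positive difference. Mt1 and Mt2, the metallothioneins that bind cytosolic zinc and that Mtf1 induces together with Slc30a1, were high in knockout libraries 2 and 3 and in knockout library 4 too. Mt2 had signals of 2504, 11132, 10775, 6408 and 2737 in knockout libraries 1 to 5, against 3217 and 4144 in wild type libraries. Mt1 had 1065, 5486, 5032, 3866 and 840.1 in knockout libraries, against 1516 and 1975 in wild type libraries. Knockout libraries 1 and 5 lay below both wild type libraries for both genes. Mtf1 lay within a narrower range, at 289.8 to 427 in knockout libraries and 270.3 and 332.5 in wild type libraries. The limma adjusted p was 0.791 for Mt1, 0.714 for Mt2 and 0.760 for Mtf1.

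The enzymes that act before and after the Slc35 carriers were counted in the same way. Of 39 listed Golgi glycosyltransferases and sulphotransferases, 35 were tested, 29 were higher by sign, and knockout libraries 2 and 3 lay above the other 5 libraries at 25 (71.4%) and below them at 1. Of 27 listed enzymes that make the sugar nucleotides and PAPS, 24 were tested, 6 were higher and 18 lower by sign, and the 2 libraries lay above the other 5 at 2 (8.33%) and below them at 12. The shares over all genes were 24.6% and 26.0%. Without knockout libraries 2 and 3, 13 transferases were higher and 21 lower (median difference -0.09, against 0.26 with all libraries), and 12 synthesis enzymes were higher and 12 lower (0.00, against -0.16). Limma called 0 genes of either list, beside 0.0152% of all genes. An unadjusted p under 0.05 was found for 1 transferase and 2 synthesis enzymes, beside 8.06% of all genes. The brightest transferase genes by mean signal were Pofut2, which adds O-fucose in the ER, B4galt6, a lactosylceramide synthase, and Mgat4b, which branches N-glycans. Pofut2 had 1213, 3568, 3677, 1602 and 1849 in knockout libraries, against 2303 and 1604 in wild type libraries, and so was high in knockout libraries 2 and 3 alone. B4galt6 had 2574, 2060.0, 2447, 2041.5 and 2787 in knockout libraries, against 951 and 2268 in wild type libraries. Mgat4b had 1412, 2061, 1937, 1228 and 1080.5 in knockout libraries, against 1638 and 1039.9 in wild type libraries, again highest in knockout libraries 2 and 3. The brightest synthesis enzymes were Cmas, which activates sialic acid, Pmm1, a phosphomannomutase, and Gnpnat1, of the UDP-N-acetylglucosamine route. Pmm1 had 4097, 2200.2, 2039.5, 3593.5 and 3345.5 in knockout libraries, against 6366 and 3794 in wild type libraries, and was lowest in knockout libraries 2 and 3. Cmas had 3620.1, 2742, 2429, 4002.5 and 3719 in knockout libraries, against 3969 and 3860.2 in wild type libraries, with the same 2 libraries lowest. Gnpnat1 had 3935.0, 2335.0, 2112, 2847 and 3630.1 in knockout libraries, against 1672 and 3823 in wild type libraries, where wild type library 1 was lowest.

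A few of these enzymes had groups that did not overlap, and they are named after their values were seen. Among the transferases 3 genes were higher in every knockout library: Mgat4a and Mgat5, which branch N-glycans, and Fut9, which makes the Lewis x epitope of early embryos. Fut9 had 169, 1878.5, 2046, 260.2 and 179.5 in knockout libraries, against 114 and 124 in wild type libraries (1.93, SE 0.98, limma adjusted p = 0.589). Among the synthesis enzymes Uxs1, which makes UDP-xylose, was higher, with 456, 1749.7, 1578, 428 and 601.5 in knockout libraries against 163 and 381 in wild type libraries (1.6, SE 0.61, adjusted p = 0.589). Gmppb and Gfus, of the GDP-mannose and GDP-fucose routes, were lower in every knockout library. Gmppb had 409, 229, 335, 287 and 379 in knockout libraries, against 717 and 516 in wild type libraries (-0.88, SE 0.29, adjusted p = 0.589). Over all genes 6.41% were higher and 7.44% lower without overlap.

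**Figure D4:**
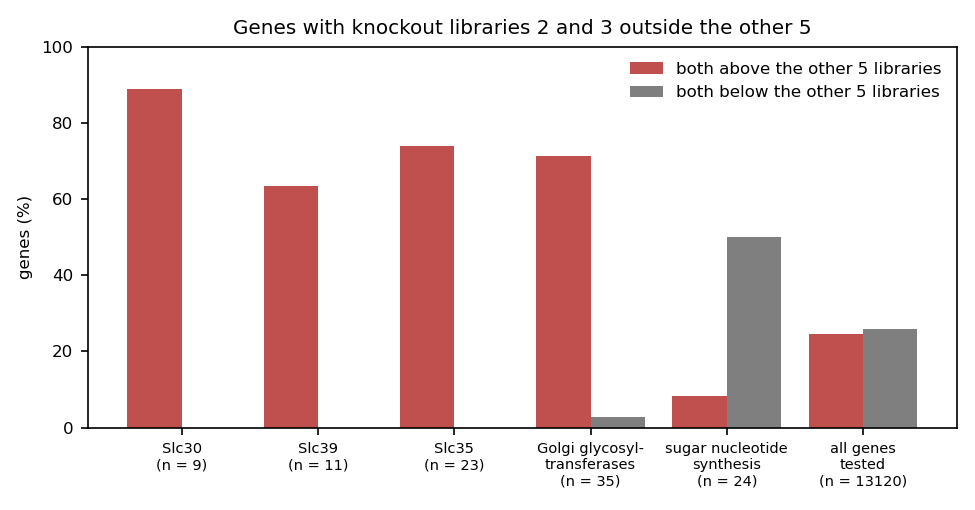
Percentage of tested genes in each list whose signals in knockout libraries 2 and 3 both lay above (red) or both below (grey) the other 5 libraries, with the number of genes under each list. The 3 carrier families and the Golgi transferases reach 63.6% to 88.9% above, all genes 24.6%, and the synthesis enzymes 8.33%.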

How the data were processed

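Gene expression was measured in 7 libraries, 5 calreticulin knockout and 2 wild type, grouped by their titles. The deposited values are MAS5 intensities, not logged, per the submitters' processing notes, which name no version. With 2% of values trimmed at each end, the mean was 500.0 on all 7 arrays, so they were already scaled, and no further normalization was applied. The files hold no detection calls.

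Tests used log2(signal + 20.2), with the pseudocount set at the 20th percentile of the signals. Of 45101 probe sets, 64 controls were set aside, and 27022 whose average log2 signal exceeded the 40th percentile were tested with limma 3.58.1 in R 4.3.3 (lmFit, eBayes with a trend, two-sided, Benjamini-Hochberg over the whole table). The annotation gave 34958 probe sets 1 symbol, 932 several and 9211 none, and 34754 were matched to RefSeq genes of GRCm38.p6. A gene was represented by its brightest tested probe set, which gave 13120 genes. P-values measure the spread between these libraries, and the number of arrays limits precision. The fit was tested on simulated data, with 50 genes changed at each size. It called 10% of genes changed by a log2 size of 1 and 72% of those changed by 2. There were 4 false calls. The members, lists and alternatives were chosen with earlier results of these data known.

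Signals in every library are given for the 3 brightest genes of each family, for genes whose tested probe sets differ in sign or whose groups do not overlap, and for further members chosen after their values were seen. From the related lists the 3 brightest genes are named where none was called, and Mt1, Mt2 and Mtf1. Promoter windows came from RefSeq (GRCm38.p6), with 53 windows for 43 of 50 member genes. Coordinates are of that build; the array files name none. The alternatives were 2 other scalings, other filters and pseudocounts, no trend, array weights, the replicate number as a block, other choices of libraries, a batch term and the mean over a gene's probe sets. Figures were drawn with matplotlib 3.10.9.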

Additional observations from a re-analysis of the deposited data

Results flagged for a closer look

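Slc35c1 had a signal of 106.8 in knockout library 4, against 149.8 to 167.1 in the other 4 knockout libraries and 139.0 and 109.4 in wild type libraries. It lay far from the rest of its group by Dixon's test (critical value 0.71 for 5 libraries). The test was applied to 44 genes in the knockout group, where chance alone flags about 1 in 20 groups, and it marked this 1 value.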

How the results depend on the processing

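The counts of called carrier genes, and of called genes of the related lists, were 0 under all 19 alternatives, as was that of carrier probe sets where it applies. The Calr difference ranged from -3.78 to -3.52 with each library left out in turn, and lost its call without wild type library 1 (-3.58, limma adjusted p = 0.253) or 2 (-3.78, adjusted p = 0.129). Over the array 8 probe sets were called; the count was 5 with no filter, 4 with the filter at the 60th percentile, 5 without knockout libraries 2 and 3, 15 with the replicate block, and 0 to 7 with single libraries left out. The numbers shared by the groups do not pair the libraries (correlation of deviations 0.109 for number 1 and -0.01 for number 2), and the block changed no call among the carriers. Its median differences were 0.43 for zinc carriers and 0.39 for Slc35 genes. Centring arrays on their median moved the median of all genes by -0.12. Relative to it, the zinc carriers stood at 0.38 and the Slc35 genes at 0.32. The median of the zinc carriers was 0.04 with array weights, and with single libraries left out it was 0.18 without knockout library 2, 0.12 without knockout library 3 and up to 0.48 otherwise, against 0.37 with all. The count of 32 carrier genes with knockout libraries 2 and 3 above the other 5 was 24 with median centring, where all genes gave 17.0%, and 30 with quantile normalization, where all genes gave 20.7%; these were chosen after seeing the data.

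Of 285 recomputed differences of the 15 genes named by the rule, 29 changed sign, none of them a call. Slc35g1 was at -0.0202 with median centring and Slc39a14 at -0.0673 with array weights. With the block Slc35b1 was at 0.0127, Slc35c2 at 0.19 and Slc39a7 at 0.14. Without knockout libraries 2 and 3, or with these as a batch term, Slc30a6 was at -0.0314, Slc35f2 at -0.0421, Slc39a14 at -0.37 and Slc39a9 at -0.0659. With the mean over probe sets Slc35c2 was at 0.18, Slc35e1 at 0.0782, Slc39a3 at 0.24 and Slc39a9 at -0.0702. With single libraries left out, Slc35c2 ranged from -0.50 to 0.23, Slc35e1 from -0.12 to 0.061, Slc35g1 from -0.11 to 0.30, Slc39a10 from -0.0297 to 0.77, Slc39a3 from -0.30 to 0.0752 and Slc39a7 from -0.36 to 0.26. Without knockout library 2 or 3, Slc30a6 was at 0.41 and 0.42, Slc35f2 at 0.41 and 0.44, and Slc39a14 at 0.12 and 0.12; without knockout library 3, Slc35a2 was at 0.43 and Slc39a9 at 0.11. The cause of these changes was not tested.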
